A study of Homo sapiens with 3 samples.

Results

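The 10 genes described here belong to the YAP and TAZ pathway: CYR61, CTGF, ANKRD1, AMOTL1, AMOTL2, LATS2, AJUBA, YAP1, WWTR1 and TEAD1. They were chosen by symbol, with earlier results of these data known, and all 10 were found among the 13479 genes of a table of RNA 5′ ends. The counting method was CAGE (cap analysis of gene expression), in which short tags are read from the capped 5′ end of RNA. The cells were EBC-1, a human cell line from a squamous cell carcinoma of the lung, which had been electroporated with RAB11A siRNA 1, RAB11A siRNA 2 or a negative control siRNA. RAB11A encodes a small GTPase of the recycling endosome. Each electroporation used 600 pmol of siRNA, and the labels give 72 h after plating for all libraries. Each of the 3 groups had 1 library from the same line, so none of the differences has a replicate check, and the siRNAs share the single control library. A difference between cultures and an effect of an siRNA cannot be told apart with 1 library each.

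YAP (from YAP1) and TAZ (from WWTR1) are transcriptional coactivators that shuttle between cytoplasm and nucleus. In the Hippo pathway, MST kinases activate LATS kinases, which phosphorylate YAP and TAZ and hold them in the cytoplasm. When they are not phosphorylated they enter the nucleus, bind TEAD factors on DNA and switch on genes such as CYR61, CTGF and ANKRD1. Several targets, LATS2 and AMOTL2 among them, encode inhibitors of YAP and TAZ, which closes a negative feedback loop. In epithelial cells the pathway responds to cell density, junctions, cell shape and the actin cytoskeleton.

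Levels are given in CPM, the tag count of a gene scaled to a fixed library total. A CAGE tag marks 1 transcript start whatever the length of the transcript, so CPM values of different genes can be set side by side without a length correction. Differences are log2 ratios of (CPM + 1), which slightly understate the change of low genes. Their standard errors and the 95% intervals, exact Poisson for levels, cover counting error only. The spacing of the deposited values put about 24999950 tags in each library. The same total came out for all 3 libraries, and whether they were brought to a common size before deposit was not tested. Added up over all listed genes, the recovered tags came to 25204585 with siRNA 1, 25137457 with siRNA 2 and 25174787 with control. Each sum lies above that total, so some tags may have been counted under more than 1 gene, which was not tested. The counting errors treat every recovered tag as a separate count. A filter on the mean level kept the 10788 genes that reached 5 CPM (125 tags) for comparison. All 10 pathway genes passed this filter, with between 594 and 12170 tags in a library.

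RAB11A itself stood at 7.48 CPM with siRNA 1 and 22.7 CPM with siRNA 2, against 135 CPM with control siRNA. That is 5.53% (95% exact interval 4.75% to 6.41%) and 16.8% (15.3% to 18.3%) of the control level. Of 14 epithelial and squamous markers, 6 were listed, with a sum of 1185 CPM with siRNA 1, 1041 CPM with siRNA 2 and 1001 CPM with control. The keratin KRT19 stood at 175 CPM with siRNA 1 and 152 CPM with siRNA 2, against 109 CPM with control (log2 ratios of CPM + 1 of 0.68 and 0.47). KRT8 (0.12 and 0.00) and KRT18 (0.30 and 0.03) were closer to control, SFN had 0.39 and 0.33, and PERP -0.13 and -0.22. EPCAM had at most 4.28 CPM. The part of these markers in the results below was not tested. The squamous markers KRT5, KRT6A, KRT14, TP63, SOX2, PKP1 and DSG3, and also CDH1, matched no symbol in the values used here. Of 12 markers of leukocytes, endothelium, fibroblasts and lung epithelium, 3 were listed, with a sum of 24.4 CPM with siRNA 1, 34.0 with siRNA 2 and 48.0 with control. COL1A1 and COL1A2 had at most 2.28 CPM in any library. The sum was mostly CD68, a lysosomal glycoprotein of macrophages and other cells, at 21.1, 31.4 and 45.2 CPM in the same order of libraries, and its part in the results below was not tested.

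The target genes that encode secreted matrix proteins and a muscle-type ankyrin protein were higher with either RAB11A siRNA than with control. CYR61, CTGF and ANKRD1 summed to 569 CPM with siRNA 1 and 472 CPM with siRNA 2, against 295 CPM with control. Most of each sum was CYR61, at 487, 388 and 241 CPM in the same order of libraries. In bulk RNA, more cells that express a gene and more RNA per cell cannot be told apart. The coactivators YAP1 and WWTR1 differed from control by log2 ratios between -0.22 and 0.12. With siRNA 1, 1 of the 10 genes, CYR61, was at least 2-fold higher than control and 0 were at least 2-fold lower. Among all genes compared, 0.371% were higher and 0.519% lower by that measure. With siRNA 2, 0 of the 10 genes were 2-fold apart from control in either direction, where 0.195% of all genes were higher and 0.269% lower.

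At a lower bar of 1.5-fold, 2 of the 10 genes were higher with siRNA 1 (CYR61 and ANKRD1), and 2.81% of all genes were. With siRNA 2, 2 of the 10 were 1.5-fold higher (CYR61 and CTGF), and 1.24% of all genes were. None of the 10 was 1.5-fold lower with either siRNA, against 2.56% of all genes for siRNA 1 and 1.85% for siRNA 2. By sign alone, 9 of the 10 lay above control with siRNA 1, where 45.1% of all genes did, and 7 of the 10 with siRNA 2, where 41.4% did. The median log2 ratio of the 10 genes was 0.26 with siRNA 1 and 0.15 with siRNA 2, beside -0.03 and -0.04 over all genes compared. Because the 10 genes were chosen with earlier results of these data known, these shares and medians are a description and not a test.

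**Figure D1:**
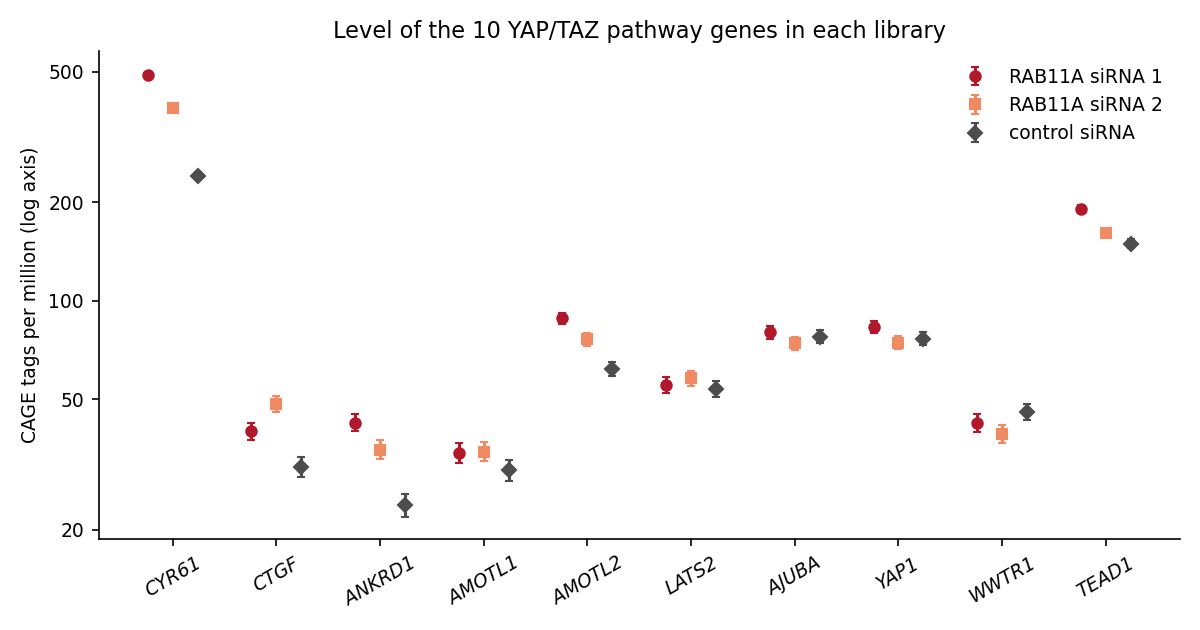
CAGE level in CPM (log axis) of each of the 10 genes in the RAB11A siRNA 1, RAB11A siRNA 2 and control siRNA libraries, 1 library each. Bars are exact 95% Poisson intervals. CYR61 stood at 487, 388 and 241 CPM, while for AJUBA, and likewise for LATS2, the 3 libraries lay close to each other.

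CYR61 (chr1:86046444-86050272, plus strand, GRCh37/hg19; now named CCN1) encodes a secreted, integrin-binding matricellular protein. It stood at 487 CPM with siRNA 1 (95% interval 478 to 496) and 388 CPM with siRNA 2 (381 to 396), against 241 CPM with control (234 to 247). Both siRNA libraries were above control, and the 3 counting intervals did not overlap. The log2 ratios to control were 1.01 with siRNA 1 and 0.69 with siRNA 2, with counting standard errors of 0.023 and 0.024. CYR61 ranked 34 of 10788 from the highest ratio with siRNA 1 and 74 with siRNA 2.

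ANKRD1 (chr10:92671853-92680844, minus strand), a cardiac ankyrin repeat protein that shuttles between sarcomere and nucleus in muscle, is a standard readout of YAP and TAZ activity. It stood at 42.4 CPM with siRNA 1 (39.9 to 45.0) and 35.0 CPM with siRNA 2 (32.8 to 37.4), against 23.8 CPM with control (21.9 to 25.8). It followed the same order as CYR61, with siRNA 1 highest, siRNA 2 between and control lowest. The log2 ratios were 0.81 and 0.54, with counting standard errors of 0.071 and 0.074. Its ranks were 93 and 169 of 10788.

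CTGF (chr6:132269316-132272512, minus strand; now named CCN2) encodes another protein of the CYR61 family, connective tissue growth factor. It stood at 39.9 CPM with siRNA 1 (37.4 to 42.4) and 48.4 CPM with siRNA 2 (45.7 to 51.2), against 31.0 CPM with control (28.9 to 33.3). CTGF was thus above control in both siRNA libraries but highest with siRNA 2, unlike CYR61 and ANKRD1. The log2 ratios were 0.35 and 0.63, with counting standard errors of 0.067 and 0.065. Its ranks were 973 with siRNA 1 and 99 with siRNA 2. The other listed member of the CCN family, NOV, lay at 0.76, 1.16 and 0.68 CPM with siRNA 1, siRNA 2 and control, too low to be compared.

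The table gives no tag positions, so promoter sequence could be read only at annotated starts. A RefSeq promoter, 250 bases before to 50 after an annotated start (GRCh38.p14), was matched for 8 of the 10 genes, with 11 promoters in all; CYR61 and TEAD1 were not matched. The TEAD motif CATTCC was searched on both strands. It was present in 6 of the 11 promoters and 6 of the 8 genes, and in 14.0% of the 34943 promoters and 16.7% of the 27167 genes of the table. These genes had been listed as members of the YAP and TAZ pathway, so their share is a description and not a test. The CTGF promoter held 3 matches, where 0.126% of all promoters held 3 or more, and that of ANKRD1 held 2. Of the 2 AMOTL2 promoters, 1 held 1 match. The promoters of CTGF, ANKRD1 and AMOTL2 are printed as those that hold the motif and whose genes stood above control in both siRNA libraries. That of LATS2 is printed as one that also holds the motif and whose gene stood close to control. The AMOTL1 promoter holds no match and is not printed, though AMOTL1 also stood above control with both siRNAs (log2 ratios 0.17 and 0.18). Capitals mark the TEAD motif on either strand (read as GGAATG where it lies on the other strand); all 4 genes are on the minus strand and are written 5′ to 3′ along the gene.
CTGF, chr6:131951323-131951622: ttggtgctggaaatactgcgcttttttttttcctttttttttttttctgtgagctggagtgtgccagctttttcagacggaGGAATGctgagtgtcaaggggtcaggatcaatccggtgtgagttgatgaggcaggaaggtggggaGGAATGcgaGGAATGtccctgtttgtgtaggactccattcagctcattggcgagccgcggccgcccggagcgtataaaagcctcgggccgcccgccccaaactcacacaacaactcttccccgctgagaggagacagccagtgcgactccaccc
ANKRD1, chr10:90921038-90921337: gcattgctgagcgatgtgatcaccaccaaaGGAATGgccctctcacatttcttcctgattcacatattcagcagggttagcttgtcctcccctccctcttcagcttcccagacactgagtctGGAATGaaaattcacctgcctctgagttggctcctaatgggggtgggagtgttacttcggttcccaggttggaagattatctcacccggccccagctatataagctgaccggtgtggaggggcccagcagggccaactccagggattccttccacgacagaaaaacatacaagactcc
AMOTL2, chr3:134374398-134374697: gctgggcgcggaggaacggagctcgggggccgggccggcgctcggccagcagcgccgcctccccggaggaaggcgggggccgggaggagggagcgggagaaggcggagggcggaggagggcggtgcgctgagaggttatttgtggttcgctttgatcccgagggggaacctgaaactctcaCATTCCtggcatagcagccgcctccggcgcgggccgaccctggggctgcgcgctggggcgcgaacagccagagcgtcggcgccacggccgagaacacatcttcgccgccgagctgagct
LATS2, chr13:21061537-21061836: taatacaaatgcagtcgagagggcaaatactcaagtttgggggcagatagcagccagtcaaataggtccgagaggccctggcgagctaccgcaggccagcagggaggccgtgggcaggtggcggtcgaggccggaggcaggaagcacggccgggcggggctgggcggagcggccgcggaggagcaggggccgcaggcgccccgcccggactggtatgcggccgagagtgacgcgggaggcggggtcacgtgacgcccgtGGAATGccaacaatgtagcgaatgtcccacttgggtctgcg

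In CTGF the matches began 169, 104 and 95 bases upstream of the annotated start, and in ANKRD1 220 and 128 bases upstream. The AMOTL2 match began 69 bases upstream, while the LATS2 match lay downstream, at bases 10 to 15 of the transcript. AJUBA had 1 match in 1 of its 2 promoters, 59 bases upstream, and YAP1 had 1, 162 bases upstream. AMOTL1 and WWTR1 had none in these windows. The pattern TGANTCA, where N is any base, was searched as a loose AP-1 motif. It was in 1 of the 11 promoters, that of ANKRD1, between both TEAD matches, and in 7.72% of all promoters. The AP-1 motif in the strict sense has C or G in the middle, and the ANKRD1 match has T there. The CArG box, the binding motif of serum response factor, was in 0 of the 11 and in 1.30% of all promoters. The deposited table gives 1 value per gene, so it cannot be told which of several annotated starts gave the tags.

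**Figure D2:**
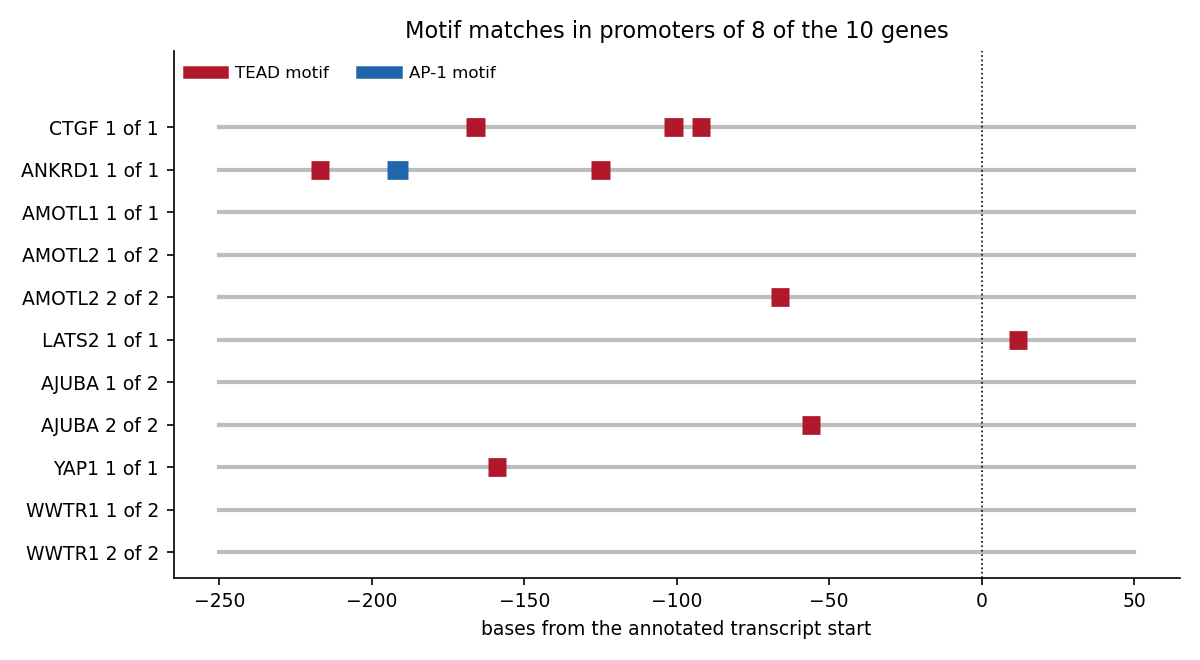
Positions of TEAD motif and loose AP-1 motif (TGANTCA) matches on either strand in the 11 annotated promoters of 8 of the 10 genes, in bases from the annotated start (dotted line). Grey lines span 250 bases before to 50 after the start; CTGF holds 3 TEAD matches and ANKRD1 2.

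AMOTL2 and AMOTL1 encode angiomotin-like scaffold proteins of cell junctions, which bind YAP and TAZ and keep them out of the nucleus. AMOTL2 (chr3:134074189-134094321, minus strand) stood at 88.2 CPM with siRNA 1 (84.6 to 92.0) and 76.1 CPM with siRNA 2 (72.7 to 79.6), against 61.9 CPM with control (58.9 to 65.1). Its 3 intervals were separate, with siRNA 1 highest. The log2 ratios were 0.50 and 0.29, with counting standard errors of 0.047 and 0.049. AMOTL1 (chr11:94439597-94609913, plus strand) stood at 34.3 CPM with siRNA 1 (32.0 to 36.7) and 34.6 CPM with siRNA 2 (32.3 to 37.0), against 30.4 CPM with control (28.2 to 32.6). The AMOTL1 intervals of both siRNA libraries overlapped each other and that of control, at log2 ratios of 0.17 and 0.18 with a counting standard error of 0.070 each.

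LATS2 and AJUBA sit above YAP and TAZ in the pathway. LATS2 (chr13:21547175-21635725, minus strand), the kinase that phosphorylates YAP and TAZ and is itself a YAP target, stood at 55.3 CPM with siRNA 1 (52.4 to 58.3) and 57.9 CPM with siRNA 2 (55.0 to 61.0), against 53.8 CPM with control (50.9 to 56.7). AJUBA (chr14:23440386-23451760, minus strand), a LIM-domain adaptor that restrains LATS kinases at junctions, stood at 80.0 CPM with siRNA 1 (76.6 to 83.6) and 74.2 CPM with siRNA 2 (70.9 to 77.7), against 77.7 CPM with control (74.3 to 81.2). For both genes the 3 counting intervals overlapped. The LATS2 log2 ratios of 0.04 and 0.11 and the AJUBA ratios of 0.04 and -0.06 were at most 2 counting standard errors (0.045 to 0.054) from 0.

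The coactivators and their DNA-binding partner form the transcriptional end of the pathway. YAP1 (chr11:101981178-102104155, plus strand) stood at 83.0 CPM with siRNA 1 (79.5 to 86.7) and 74.5 CPM with siRNA 2 (71.1 to 77.9), against 76.6 CPM with control (73.2 to 80.1). Control lay between both siRNA libraries, and its interval overlapped both. The YAP1 log2 ratios were 0.12 and -0.04, the second within its counting standard error (0.046) of 0. Under TMM and median-ratio scaling of the libraries that value was slightly above 0, so it carries no sign.

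WWTR1 (chr3:149235022-149454501, minus strand), which encodes TAZ, stood at 42.4 CPM with siRNA 1 (39.8 to 45.0) and 39.2 CPM with siRNA 2 (36.8 to 41.8), against 45.8 CPM with control (43.1 to 48.5). It was the lowest of the 10 genes relative to control in both comparisons, at log2 ratios of -0.11 and -0.22 with counting standard errors of 0.060 and 0.061. The control interval overlapped that of siRNA 1 but not that of siRNA 2. The entry listed under the symbol TAZ is a different gene, tafazzin (ENSG00000102125), a mitochondrial transacylase, and was not used for WWTR1.

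TEAD1 (chr11:12695968-12966284, plus strand) encodes the TEA-domain factor through which YAP and TAZ reach DNA. It stood at 190.4 CPM with siRNA 1 (185.0 to 195.9) and 161 CPM with siRNA 2 (156 to 166), against 149 CPM with control (144 to 154). The 3 intervals were separate, with siRNA 1 highest and siRNA 2 nearer to control. The log2 ratios were 0.35 and 0.11, with counting standard errors of 0.031 and 0.033.

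Within a library, CYR61 was the most abundant of the 10 genes and TEAD1 the next in all 3 libraries. In the siRNA libraries AMOTL2, YAP1 and AJUBA came next, between 74.2 and 88.2 CPM, and neighbours among these overlapped in their counting intervals. With control AMOTL2 stood below AJUBA and YAP1, separate from both. ANKRD1 was the lowest of the 10 with control. With siRNA 1 ANKRD1 lay level with WWTR1, at 42.4 CPM for both, and with siRNA 2 it lay between WWTR1 and AMOTL1, with overlapping intervals.

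**Figure D3:**
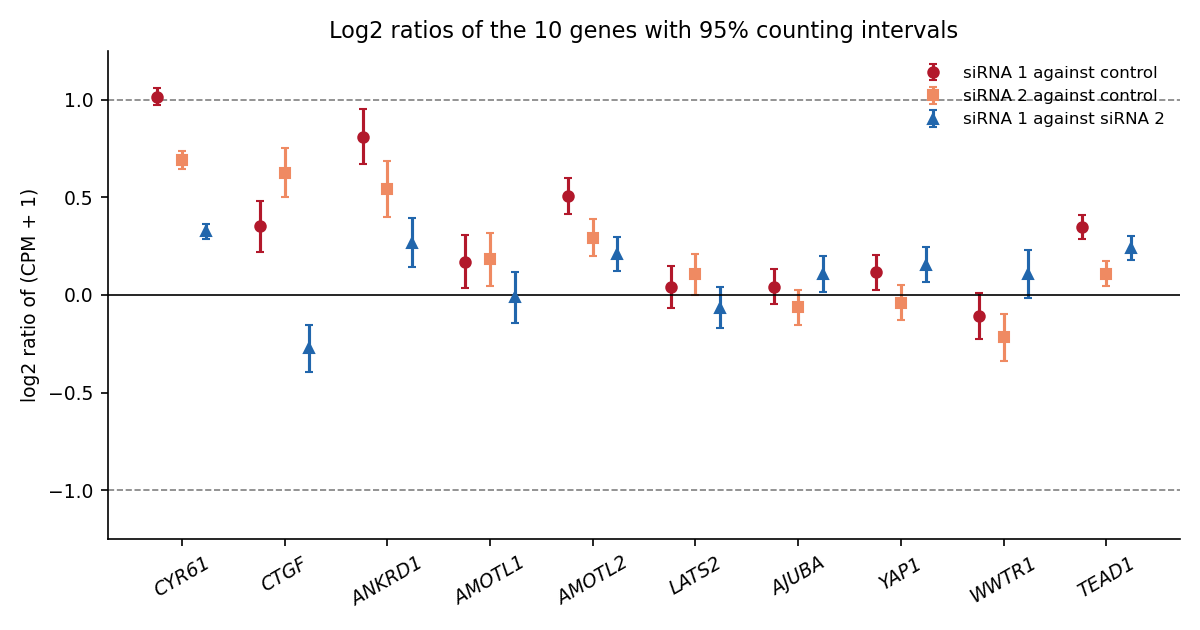
Log2 ratio of (CPM + 1) of each gene for siRNA 1 against control, siRNA 2 against control and siRNA 1 against siRNA 2, with 95% counting intervals and dashed lines at 2-fold. CYR61 with siRNA 1 lies on the 2-fold line at 1.01, and the ratio of siRNA 1 to siRNA 2 is below 0 for CTGF at -0.27.

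The siRNA libraries were also set against each other, a comparison that does not use the control library. CYR61, ANKRD1, AMOTL2 and TEAD1 were higher with siRNA 1 than with siRNA 2, at log2 ratios of 0.33, 0.27, 0.21 and 0.24, with counting standard errors between 0.020 and 0.064. CTGF was lower with siRNA 1, at -0.27 (counting standard error 0.060). YAP1 had 0.15, WWTR1 0.11 and AJUBA 0.11, while AMOTL1 had -0.01 and LATS2 -0.07. None of the 10 was 1.5-fold apart, where 0.899% of all genes were higher with siRNA 1 and 0.695% lower. The median of the 10 was 0.13, beside 0.02 over all genes compared.

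An exact two-sided binomial test on the recovered tags, with Benjamini-Hochberg adjustment over all genes, compares pairs of libraries only, not siRNA treatment as such. With a threshold of 0.05 on the adjusted p, 7 of the 10 genes were called higher and 0 lower with siRNA 1 than with control, all but LATS2, AJUBA and WWTR1. It called 23.3% of all genes higher and 29.1% lower there. With siRNA 2 it called 6 higher (CYR61, CTGF, ANKRD1, AMOTL1, AMOTL2 and TEAD1) and 1 lower (WWTR1), against 18.4% and 29.9% of all genes. Between the siRNAs it called 5 of the 10 higher with siRNA 1 (CYR61, ANKRD1, AMOTL2, YAP1 and TEAD1) and 1 lower (CTGF), against 21.4% and 15.4% of all genes. When both siRNA libraries were treated as 1 group of 2 against the single control library, limma called 0 of the 10 genes at an adjusted p of 0.05, and 4 had an unadjusted p under 0.05. That fit took its spread only from the differences between siRNA 1 and siRNA 2, which are separate siRNAs and not replicates. It also assumes that the lone control library varies like the siRNA libraries. Over all genes limma called 7 (0.0649%), and 1424 had an unadjusted p under 0.05. In that fit CYR61 had a log2 difference of 0.85 (limma adjusted p = 0.20) and ANKRD1 0.68 (limma adjusted p = 0.23).

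**Figure D4:**
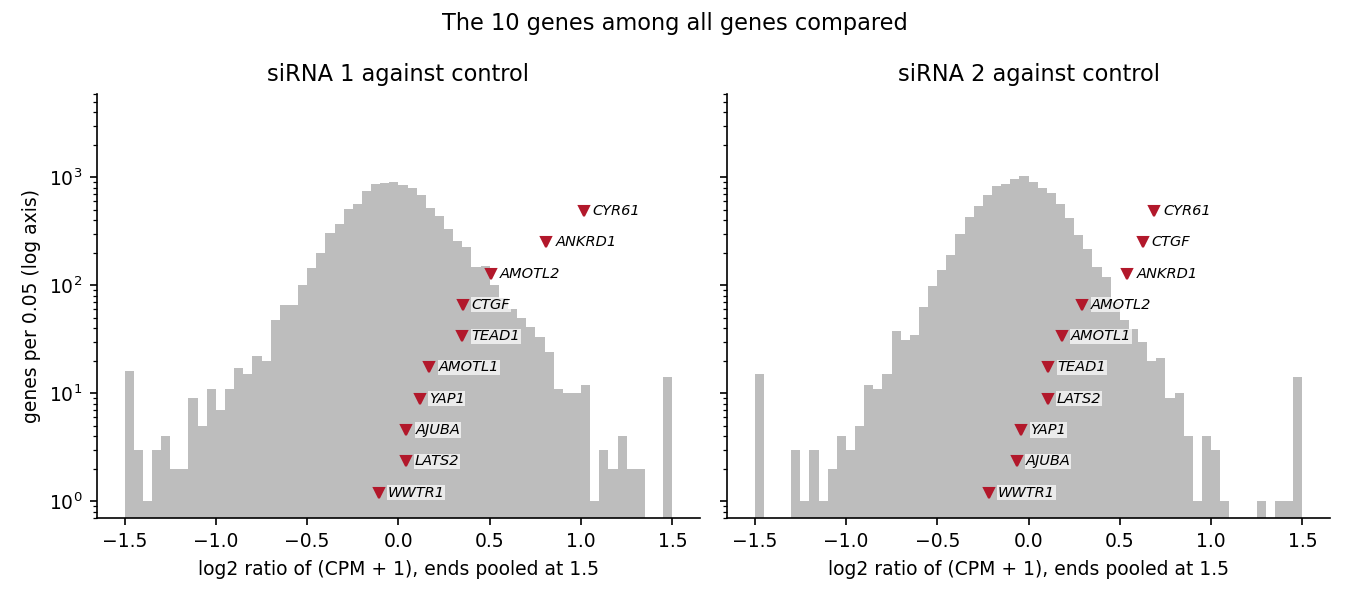
Grey histograms give the number of all compared genes (log axis) by log2 ratio of (CPM + 1) to control, in steps of 0.05 with the ends pooled at 1.5; red marks place the 10 genes on the horizontal axis, and their height only separates the names. With siRNA 1 CYR61 and ANKRD1 lie in the upper flank, and with siRNA 2 CYR61, CTGF and ANKRD1 do.

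Other genes of the pathway were taken from lists by role. Among other TEAD factors and VGLL cofactors, which compete with YAP and TAZ for TEAD, VGLL3 had 15.0 CPM with siRNA 1 and 13.2 CPM with siRNA 2, against 8.32 CPM with control (log2 ratios 0.78 and 0.61). VGLL4, a repressor that occupies TEAD, stood the other way, at 90.2 and 95.4 CPM with siRNA 1 and siRNA 2 against 142 with control (-0.65 and -0.57). Some annotated starts of VGLL4 match another place in the genome, and their part in its tags was not tested. TEAD4 had ratios of 0.23 and 0.09, and TEAD2 -0.07 and 0.12. TEAD3 and VGLL2 stood below 5 CPM, at 3.52, 3.36 and 3.60 CPM and at 0.92, 0.28 and 0.84 CPM with siRNA 1, siRNA 2 and control. VGLL1 matched no symbol in the values used here.

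Of 16 kinase core and upstream kinase genes above YAP and TAZ, 15 were compared, with median log2 ratios of 0.06 and -0.04. None was 1.5-fold apart from control with either siRNA, which is near the share of all genes (2.81% higher and 2.56% lower with siRNA 1, 1.24% and 1.85% with siRNA 2) and says nothing particular of them. The highest were MAP4K5 (0.24 and 0.20), the scaffold SAV1 (0.11 and 0.12) and the MST kinase gene STK3 (0.17 and -0.01). The lowest were MAP4K4 (-0.10 and -0.25), TAOK1 (-0.09 and -0.12) and the LATS cofactor MOB1A (-0.06 and -0.13). SAV1 and STK3, and also YWHAZ, TPM1, KRT8 and KRT18 among the genes named elsewhere, have annotated starts that match other places in the genome.

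Of 21 listed membrane and junction regulators, 15 were compared. Among these, 1 was 1.5-fold higher with siRNA 1, FRMD6, a FERM-domain protein that activates the kinases. It had 240.6 CPM with siRNA 1 and 210.0 CPM with siRNA 2, against 148 CPM with control (log2 ratios 0.69 and 0.50). The giant cadherin FAT1 had 0.15 and 0.39. PTPN14, a phosphatase that binds YAP, had -0.45 and -0.36, the tight junction scaffold TJP1 -0.29 and -0.32, and WWC3 -0.22 and -0.26. The list medians were -0.02 and 0.03, and 0 of the 15 were 1.5-fold lower with either siRNA. Of 13 genes of cytoplasmic retention and turnover, 0 were 1.5-fold apart, again near the share of all genes, with medians of -0.07 and -0.09. For both lists that share was 2.81% higher and 2.56% lower with siRNA 1, and 1.24% and 1.85% with siRNA 2. SFN, the epithelial 14-3-3 protein, was the highest at 0.39 and 0.33, followed by USP9X at 0.08 and 0.18 and YWHAH at 0.04 and 0.03. OTUB1 (-0.24 and -0.31), YWHAZ (-0.14 and -0.33) and BTRC (-0.26 and -0.15) were the lowest.

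Most of the other known YAP and TAZ target genes that were compared stood above control. The list was chosen with earlier results of these data known, so its shares are a description and not a test. Of 26 listed, 20 were compared, of which 17 lay above control with siRNA 1 and 16 with siRNA 2, beside 45.1% and 41.4% of all genes. Their median log2 ratios were 0.43 and 0.22, and 5 were 1.5-fold higher with siRNA 1 (2.81% of all genes), 2 with siRNA 2 (1.24%) and 0 lower with either (2.56% and 1.85%). TAGLN, an actin-binding protein, had 88.0 CPM with siRNA 1 and 60.1 CPM with siRNA 2, against 37.6 CPM with control (1.21 and 0.66). IGFBP3, an insulin-like growth factor binding protein, stood at 84.3 and 60.7 against 44.7 CPM (0.90 and 0.43), and the cytokinesis scaffold ANLN at 152 and 109 against 89.5 CPM (0.76 and 0.29). GADD45A had -0.25 and -0.24, MYC -0.04 and -0.14, and MYOF 0.05 and -0.06. Some listed targets, such as ANLN, BIRC5 and CCND1, are also cell cycle genes, and TAGLN is also a target of serum response factor.

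CYR61 and CTGF are also known to respond to serum response factor and, as immediate early genes, to serum and stress. Both groups were therefore set beside them, but the part of either in the levels of CYR61 and CTGF was not tested. Of 17 listed targets of serum response factor and its MRTF cofactors, 15 were compared. Their median log2 ratios were 0.07 with siRNA 1 and -0.03 with siRNA 2. Above control lay 11 of them with siRNA 1 (45.1% of all genes) and 6 with siRNA 2 (41.4%). At least 1.5-fold higher were 2 with siRNA 1 (2.81% of all genes) and 1 with siRNA 2 (1.24%). TAGLN, counted above, TPM1 (0.60 and 0.09) and FHL2 (0.28 and 0.19) were the highest, and ACTG1 (-0.23 and -0.43), ZYX (-0.35 and -0.12) and FLNA (-0.19 and -0.09) the lowest. Of 15 listed immediate early genes, 12 were compared. Their medians were -0.13 and -0.10, with 2 above control with siRNA 1 (45.1% of all genes) and 3 with siRNA 2 (41.4%). The highest were KLF6 (0.27 and 0.01), FOSL1 (0.08 and 0.10) and IER2 (-0.12 and 0.08). The lowest were IER3 (-0.66 and -0.55), ATF3 (-0.23 and -0.47) and JUND (-0.27 and -0.37).

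**Figure D5:**
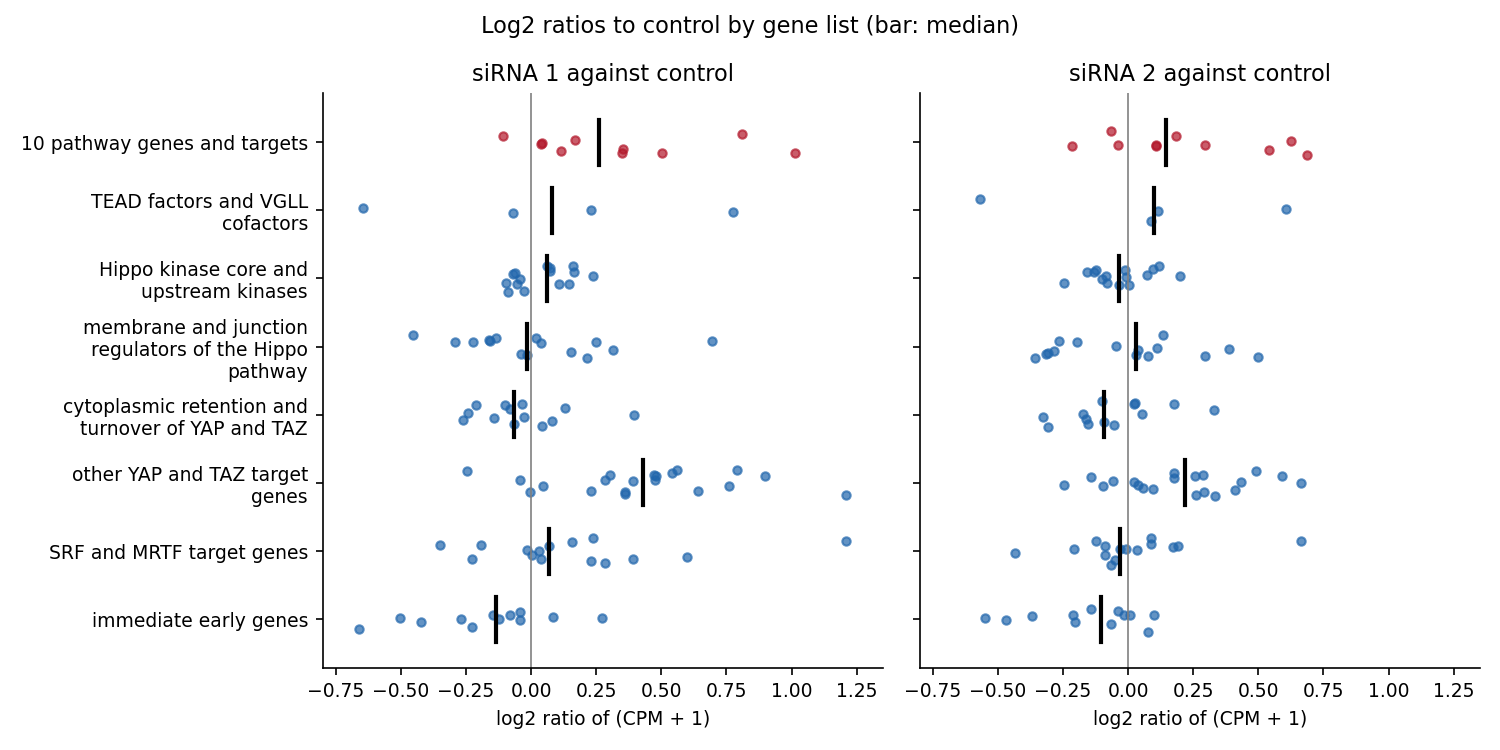
Log2 ratio of (CPM + 1) to control of each compared gene by list, for siRNA 1 (left) and siRNA 2 (right), with the list median as a black bar. The 10 genes and the other YAP and TAZ targets have medians of 0.26 and 0.43 with siRNA 1, while the kinase list lies within 0.25 of 0 throughout.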

How the data were processed

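The authors deposited a table of CPM values by gene and strand for the 3 libraries, whose column names gave the library. The submitters' processing notes name hg19, BWA and HISAT2; roles, versions, the counting tool and its filters were not given in the sources used here. Deposited CPM values were whole multiples of about 0.04 for 100% of values, within 0.005 CPM, and whole tags were recovered from them. The lowest level that a gene reached in its highest library was 0.52 CPM. A value of 0 tags would allow up to 0.12 CPM (3 tags, counting error only).

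Log2 ratios used a pseudocount of 1 CPM, genes whose mean reached 5 CPM were compared, and 2-fold was the call. The members and lists were chosen with earlier results of these data known. All members were named, and from each list up to 3 genes at either end of the mean ratio to control; BIRC5, CCND1, COL1A1, COL1A2, EPCAM, PERP and NOV were named for their roles. One gene that this rule names is not reported here. Other scalings were TMM (edgeR 4.0.16) and median ratios; limma 3.58.1 was run in R 4.3.3. The fold counts, counting errors and binomial test were first tested on simulated tags. Gene positions came from a GENCODE annotation lifted to GRCh37 and promoters from RefSeq on GRCh38.p14, and the builds were kept apart. The first 50 bases of 57 annotated starts of the 10 genes were searched against GRCh37 with minimap2 2.31, and 53 were found at their own gene. The search returned no copy within 2 mismatches elsewhere for any of the 10 genes. The other starts were not found even at their own gene, so copies of these could have been missed. Python 3.11.15 with pandas 2.3.3 and scipy 1.17.1 did the rest.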

Additional observations from a re-analysis of the deposited data

How the results depend on the processing

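Signs of the 10 genes' ratios to control were the same under a pseudocount of 0.5 or of 5 CPM, a filter at 1 or at 20 CPM or none at all, TMM, median ratios and identical genes counted once (added after seeing the data). The exception was YAP1 with siRNA 2 (-0.04), which lay between -0.04 and 0.01. CYR61 with siRNA 1 lay between 1.00 and 1.04, at the edge of the 2-fold call. The median of the 10 genes lay between 0.23 and 0.29 with siRNA 1 and between 0.13 and 0.19 with siRNA 2, and TMM and median ratios shifted the median of all genes by less than 0.05. No paired analysis was possible because each group has 1 library.

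The counts of all genes 2-fold apart depended on the settings, by construction where fewer or more genes were compared. For siRNA 1 against control the main counts were 40 higher and 56 lower. They were 20 and 30 with a pseudocount of 5 CPM, and 18 and 33 with the filter at 20 CPM. The lower count was 87 with the filter at 1 CPM and 95 without a filter. For siRNA 2 the main counts were 21 higher and 29 lower. They were 8 and 13 with the filter at 20 CPM. The lower count was 18 with a pseudocount of 5 CPM, 49 with the filter at 1 CPM and 54 without a filter. Between the siRNAs the main counts were 18 higher and 20 lower with siRNA 1, and 6 and 5 with the filter at 20 CPM. The lower count was 32 with the filter at 1 CPM and 33 without a filter.

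At 1.5-fold, 303 genes were higher and 276 lower with siRNA 1, 134 and 200 with siRNA 2, and 97 and 75 between the siRNAs. The binomial test called 2518 and 3143, 1983 and 3230, and 2312 and 1656. Of the 10 genes, 2 were 1.5-fold higher with siRNA 1, with siRNA 2 and for the mean of both siRNAs. The binomial test called 7 higher with siRNA 1, 6 higher and 1 lower with siRNA 2, and 5 higher and 1 lower between the siRNAs.

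For the mean of both siRNA ratios, 24 genes were 2-fold higher and 31 lower, against 166 and 190 at 1.5-fold and 9 and 14 with the filter at 20 CPM. The lower count was 55 with the filter at 1 CPM and 59 without a filter, and limma called 2 higher and 5 lower. RAB11A had log2 ratios of -4.01 and -2.53, and of -3.49 and -2.34 with a pseudocount of 5 CPM.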

Other observations

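The genes outside the 10 whose pair of ratios to control was most like that of CYR61 were KISS1, HIST1H1B, DKK1, a U6 entry and ESCO2. They were the 5 nearest, by Euclidean distance over the 2 log2 ratios, of 3796 genes whose mean reached 50 CPM, and both ratios share 1 control library. KISS1, which encodes the kisspeptin precursor, stood at 1052 CPM with siRNA 1 and 833 CPM with siRNA 2, against 518 CPM with control. Its log2 ratios of 1.02 and 0.68 lay 0.0070 from those of CYR61. DKK1, a secreted Wnt inhibitor, stood at 74.4 and 63.4 against 37.4 CPM. ESCO2, a cohesin acetyltransferase of S phase, stood at 77.4 and 66.1 against 37.9 CPM. HIST1H1B is a linker histone gene, at ratios of 1.01 and 0.71, and U6 is a small nuclear RNA with many copies in the genome, so its entry is uncertain.

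Among compared genes with a matched promoter, 99 had a promoter with 2 or more TEAD motif matches, and their median log2 ratios to control were 0.03 with siRNA 1 and -0.0046 with siRNA 2. For the 6942 genes with no match the medians were -0.03 and -0.05. Of those with 2 or more matches, 5.05% were at least 1.5-fold higher with siRNA 1 and 4.04% with siRNA 2, against 2.28% and 0.749% of genes with no match. For genes with 1 match these shares were 3.49% and 1.10%. For the 2659 compared genes without a matched promoter they were 3.84% and 2.48%. In a class of 99 genes these shares rest on few genes. The 99 include ANKRD1, which was 1.5-fold higher with siRNA 1, and CTGF, which was 1.5-fold higher with siRNA 2. The differences between these classes were not tested. Of the 7 genes with 3 matches, 1 was 1.5-fold higher with siRNA 2, which was CTGF. The others were C15orf38-AP3S2, EVI5, EVI5L, FHIT, SYDE1 and WTIP, with log2 ratios between -0.46 and 0.09 with either siRNA. Naming these 6 was decided after seeing their values.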
